A study of Rattus norvegicus with 4 samples.

Results

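The regions described are H1T2 peaks of rat testis chromatin that lie on satellite DNA or on simple tandem repeats. A peak was taken when the authors' annotation of its centre named a repeat of class Satellite or Simple_repeat, RatSatRep2 left aside, and did not place the peak in an intron. This gave 213 peaks, 115 on satellites and 98 on simple repeats, out of 1930 peaks with an annotation and 11570 peaks in the deposited list. Chromatin came from testes of rats 35 to 50 days old, labelled as round and elongating spermatids, and the strain is not given in the sources used here. There were 2 libraries immunoprecipitated with an antibody against H1T2 (the IP) and 2 libraries of input chromatin without antibody. The list analysed names the merged IP and the merged input as its sources and gives each peak a single value of each measure, so no test between replicates could be made from it. The study's methods also mention peak calls for each replicate, which were not used here. Their peak calling on merged files is also what the header of the list names, while the caption of the annotation table describes the peaks as overlapping between replicates.

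H1T2 is a linker histone of the male germ line that is found in spermatids, the cells in which histones are later replaced by protamines. Satellite DNA is built of long tandem arrays of a repeated unit and is a main component of heterochromatin around centromeres. Simple repeats are tandem copies of a short unit, and one such unit forms the telomeres at the ends of vertebrate chromosomes, with further copies inside the chromosomes known as interstitial telomeric sequences.

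The unit of a simple repeat is part of its name, and names that differ in the starting base or the strand describe the same repeat. Names were therefore grouped when their units were equal after rotation, reverse complement and reduction to the shortest period. The units of the 5 groups with the most members are shown to identify these groups, each as in its most frequent name or, for both purine triplets, the reverse complement of it, in lower case and with no base marked.
Telomere hexamer: ggttag
Purine triplet with more adenine: aag
Hexamer with a GC share of 66.7%: agaggc
Mixed triplet: tgg
Purine triplet with more guanine: gga

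Satellites and simple repeats differed in how many tags they held and in the input beneath them. The pileup is the number of tags of the merged IP at the summit, and the local background is the pileup divided by the fold enrichment, that is, the tag level of the scaled input or the genome-wide level where that was higher. The median satellite peak had a pileup of 234 tags (quartiles 165 to 324) over a local background of 82.1 tags (95% order-statistic interval 68.5 to 90.6). The median simple repeat peak had a pileup of 36 tags (quartiles 26 to 96) over a background of 3.10 tags (95% order-statistic interval 2.27 to 4.97). Median fold enrichment was 3.08 for satellites (interval 2.96 to 3.26) and 10.8 for simple repeats (interval 9.42 to 12.9). Satellite peaks thus had the higher pileup, the higher input and the lower ratio. Per the header of the list, at most 2 IP and 3 input tags were kept at a position. Such limits bound pileup and background where tags are dense, and their part in the satellite values was not tested. The difference between pileup and background, a measure on the tag scale, was 151 tags for the median satellite and 33.2 tags for the median simple repeat. These intervals treat peaks as independent, which peaks of 1 array are not.

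A fold enrichment of at least 5 was reached by 5 of 115 satellite peaks (4.35%, 95% Wilson interval 1.87 to 9.78%) and by 83 of 98 simple repeat peaks (84.7%, interval 76.3 to 90.5%), against 81.1% of the annotated peaks. Nothing is read from these shares about binding, because annotation was at hand for the peaks of smallest p-value, from a -log10 p of 17.78 upward, and this limit ties fold to background. Of 1931 listed peaks at or above this limit, 1930 were annotated. At the genome-wide background of 1.65 tags a peak needed 22 tags, a fold of 13.3, to be among them. At the median background of the satellites 174 tags were enough, a fold of 2.12. The whole range of the list below this limit is not annotated here, so weaker peaks on either class are not counted.

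**Figure D1:**
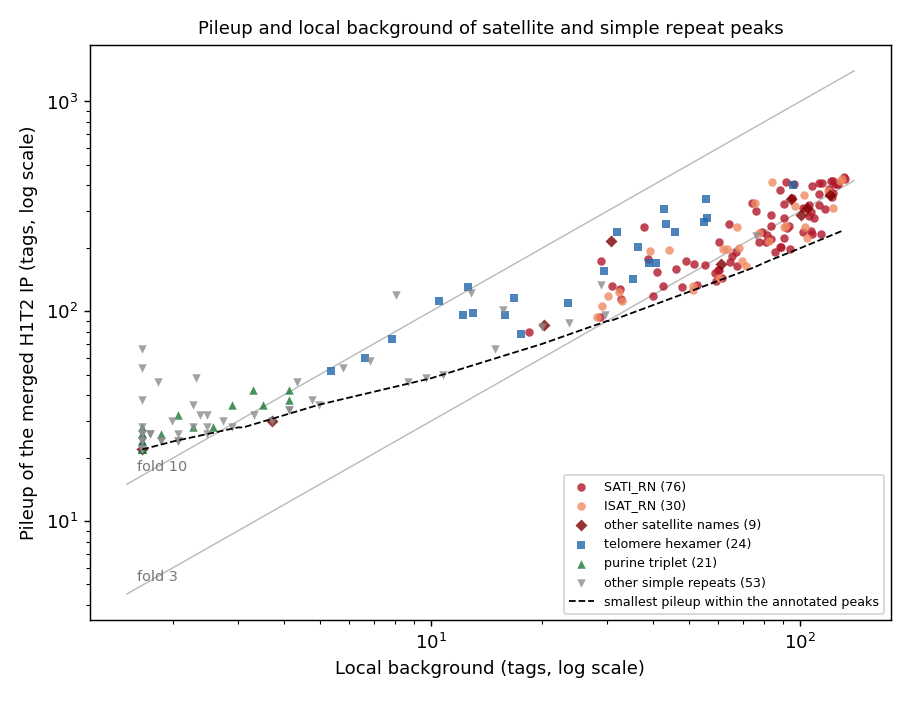
Pileup of the merged IP against local background, both in tags on log scales, for 115 satellite and 98 simple repeat peaks; each point is a peak, grey lines mark folds of 3 and 10, and the dashed line is the smallest pileup that reached the -log10 p of 17.78. SATI_RN and ISAT_RN peaks lie at the right with backgrounds of 18.4 to 132 tags, the purine triplet at the left, and the telomere hexamer from 5.38 to 95.4 tags, with 14 of its 24 peaks inside the range of those satellites.

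Among other annotated peaks outside introns, the 453 on RatSatRep2 had a median fold of 7.64 over a background of 6.21 tags. The 626 on LINE elements had a median fold of 8.38 over a background of 4.76 tags. The 237 without a repeat had a median fold of 5.58 over a background of 15.1 tags, with 11.4% at the genome-wide background. Satellites lay above all 3 in background, and the highest background of the whole list, 132 tags, belonged to a satellite peak. Simple repeats lay below all 3 in background and above them in fold, an order that did not hold against RatSatRep2 and LINE peaks at a stricter limit, at which the other groups were compared after seeing the data. With a -log10 p of at least 30, 38 simple repeats had a median fold of 7.50 over 14.4 tags, against 8.31 over 7.96 tags for RatSatRep2, 8.75 over 6.62 tags for LINE elements and 5.36 over 26.0 tags without a repeat. Peaks at the genome-wide background, within 1%, made up 26 of 98 simple repeats (26.5%, interval 18.8 to 36.0%) and 1 of 115 satellites (0.870%, interval 0.154 to 4.76%). Such peaks were 5.49% of the annotated peaks and 16.1% of the whole list. With a -log10 p of at least 30, an alternative added after seeing the data for these shares, they were 3 of 38 simple repeats (7.89%, interval 2.72 to 20.8%) and 0 of 81 satellites, against 4.16% of the annotated peaks.

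The satellite peaks carried 6 repeat names. SATI_RN accounted for 76 of 115 peaks (66.1%, interval 57.0 to 74.1%) and ISAT_RN for 30 (26.1%, interval 18.9 to 34.8%). Both names had close values. SATI_RN had a median fold of 3.05 (quartiles 2.67 to 3.55) over 87.0 tags, and ISAT_RN had 3.19 (quartiles 2.59 to 3.61) over 70.5 tags, with overlapping order-statistic intervals of 2.86 to 3.25 and 2.77 to 3.41. Of the other names, IMPB_02 had 5 peaks, 91ES8_RN had 2, and RatSatRep1 and ZP3AR had 1 each.

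The satellite peak of smallest p-value was an ISAT_RN peak at chr13:33508446-33508786, with 414 tags and a fold of 4.92 (exact 95% Poisson interval 4.46 to 5.42) at a -log10 p of 145.51. It ranked 12 in the whole list. The SATI_RN peak of smallest p-value lay at chr7:22323390-22323855, with 414 tags, a fold of 4.53 (4.10 to 4.99) and a -log10 p of 133.78. Another SATI_RN peak, at chr1:180896788-180897147, had 406 tags and a fold of 4.23 (3.83 to 4.66). The next by p-value were SATI_RN at chr13:33592130-33592359, with 252 tags and a fold of 6.66 (5.86 to 7.54), and SATI_RN at chr1:180858090-180858420, with 378 tags and a fold of 4.28 (3.86 to 4.73). These Poisson intervals hold the background fixed and speak of counting error alone. No pileup in the list is odd, and with both tags of a pair counted once the interval of the ISAT_RN peak becomes 4.27 to 5.64.

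The satellite peaks of largest fold were of another kind. ZP3AR at chr1:89254679-89254952, nearest to the fatty acid receptor gene Ffar2, had a fold of 13.3 (8.34 to 20.2) from 22 tags at the genome-wide background. RatSatRep1 at chr3:130350109-130350335, nearest to the Notch ligand gene Jag1, had a fold of 8.06 (5.44 to 11.5) from 30 tags. Both stood at the end of the annotated range, with -log10 p of 18.07 and 17.78, and were the 2 satellite peaks of largest p-value. The next by fold held many more tags. IMPB_02 at chr4:146538771-146539023 had 216 tags and a fold of 7.01 (6.11 to 8.01), followed by the SATI_RN peak of fold 6.66 given above. SATI_RN at chr1:180861299-180861552 had 174 tags and a fold of 6.01 (5.15 to 6.97). The 2 peaks on 91ES8_RN, at chr2:49358115-49358320 and chr3:41642-42101, had folds of 2.75 (2.35 to 3.20) and 3.65 (3.27 to 4.06). The highest background, 132 tags, was that of SATI_RN at chr1:180645736-180646428, where 428 tags gave a fold of 3.24 (2.94 to 3.56).

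**Figure D2:**
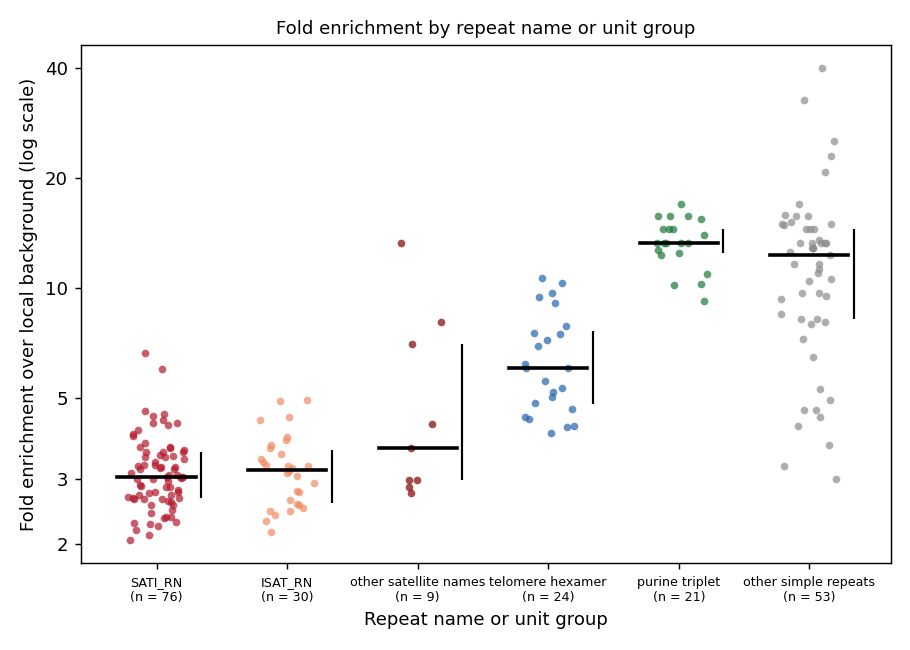
Fold enrichment over local background on a log scale by satellite name or simple repeat unit group; each point is a peak, thick bars are medians and thin lines the quartiles. Medians were 3.05 for SATI_RN, 3.19 for ISAT_RN, 6.03 for the telomere hexamer and 13.3 for the purine triplet with more adenine. A fold of 13.3 was the smallest that reached the annotated range at the genome-wide background.

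The 98 simple repeat peaks fell into 26 unit groups, of which the telomere hexamer was the largest with 24 peaks (24.5%, interval 17.0 to 33.9%) under 9 names. Its share was 60.5% of the 38 simple repeats with a -log10 p of at least 30. The names were split evenly by strand, 12 written with more guanine and 12 with more cytosine. Telomere hexamer peaks had a median of 149 tags (52 to 398) over a background of 30.6 tags (5.38 to 95.4), and a median fold of 6.03 (quartiles 4.81 to 7.61). By these medians they stood between the satellites and the other simple repeats, while 14 of the 24 had a background within the range of SATI_RN and ISAT_RN peaks. Their median -log10 p of 58.4 was above that of the satellites, 43.4, and of the other 74 simple repeats, 21.7. No telomere hexamer peak was at the genome-wide background.

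The telomere hexamer peak at chr16:51027810-51028177, nearest to the protocadherin gene Fat1, had the smallest p-value of all 213 peaks. It held 308 tags at a fold of 7.20 (6.42 to 8.05) and a -log10 p of 151.25. The peak at chr15:78122568-78123005, nearest to Pcdh9, had 398 tags over 95.4 tags, the highest background among simple repeats, and a fold of 4.17 (3.77 to 4.60). The peak at chr2:199044731-199045252 had 262 tags and a fold of 6.03 (5.32 to 6.81). At chromosome 7 there were 2 peaks beside each other, chr7:145727570-145727844 with 238 tags and a fold of 7.47 (6.55 to 8.48), and chr7:145728134-145728452 with 344 tags and a fold of 6.19 (5.55 to 6.88). These 5 peaks were the simple repeats of smallest p-value, so the telomere hexamer held the top of the class by p-value. By fold it stood lower, with a median of 6.03 against 12.9 for the other 74 simple repeats.

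The 24 telomere hexamer peaks were spread over 10 chromosomes, with none in a cluster as defined below. Chromosome lengths were not used here, so closeness to an end was judged by order in the peak list alone. The share of all listed peaks so placed was not computed, so nothing is read from the count that follows. Among the first or last 3 listed peaks of their chromosome were 4 of the 24. They were the pair on chromosome 7, which are the last peaks listed there, the last peak of chromosome 16 at chr16:90665215-90666017 with a fold of 9.42 (7.40 to 11.8), and the first peak of chromosome 1 at chr1:50256-50472 with a fold of 4.44 (3.51 to 5.54). The fifth listed peak of chromosome 1, outside this count, was also a (CCCTAA)n peak, at chr1:270799-271028 with a fold of 4.02 (3.39 to 4.74). These peaks of chromosomes 16 and 1 were named after their values were seen. The peaks listed last carried names written with more guanine, (GGTTAG)n, and the peak listed first a name written with more cytosine, (CCCTAA)n. The pair on chromosome 7 lies 290 bp apart, so these names come from few places, and nothing is read from them. Another listed peak within 10 kb was present for 2 of 24 telomere hexamer peaks (8.33%, interval 2.32 to 25.8%), the pair on chromosome 7.

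The purine triplet with more adenine came next, with 21 peaks (21.4%, interval 14.5 to 30.5%) under 10 names. These peaks were low in tags and in input. The median was 26 tags (22 to 42) and the median fold 13.3 (quartiles 12.4 to 14.5, range 9.19 to 16.9), and 12 of 21 were at the genome-wide background. At that background 13.3 was also the smallest fold that reached the annotated range, so this median is tied to that limit. The peak of smallest p-value, at chr14:63644420-63644743 and nearest to the coactivator gene Ppargc1a, had 42 tags and a fold of 12.7 (9.15 to 17.2). Sequences assigned to the Y chromosome but not placed on it held 8 of the 21, against 57 of 1930 annotated and 280 of 11570 listed peaks. The purine triplet with more guanine had 7 peaks with a median fold of 12.3, of which 3 were on such Y sequences. Its peak of smallest p-value lay on Y_KL568151v1_random from 2475762 to 2476604, with 46 tags and a fold of 10.6 (7.75 to 14.1). Counting all units that hold purines alone on 1 strand, 34 of 98 simple repeats were of this kind (34.7%, interval 26.0 to 44.5%), and they included all 11 simple repeats on Y sequences. Those 11 were 11.2% of the 98 simple repeats (interval 6.38 to 19.0%).

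The hexamer agaggc had 10 peaks with a median fold of 10.3 (4.94 to 15.0). On the X chromosome were 5 of these 10, against 121 of 1930 annotated peaks and 632 of 11570 listed peaks. All 5 lay in a single stretch from 2208012 to 2384420, so they are not independent and do not speak for the chromosome at large. The agaggc peak of smallest p-value was at chr5:159130051-159130332, with 26 tags and a fold of 15.0 (9.78 to 21.9). The mixed triplet had 8 peaks with a median fold of 12.9 (6.49 to 23.0). Its peak of smallest p-value, at chr4:44905568-44906019 nearest to Capza2, had 102 tags and a fold of 6.49 (5.29 to 7.88). The group of the octamer (CTCCCTGT)n, reverse complement included, had 3 peaks, that of smallest p-value at chr9:40518062-40518313 with 122 tags and a fold of 9.52 (7.91 to 11.4). The group of the tetramer (TCCA)n, likewise, had 3 peaks. That of smallest p-value, at chr2:141538705-141539187, had 26 tags and a fold of 10.5 (6.85 to 15.4), below the folds of 13.3 of both others.

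Of the 5 simple repeat peaks of largest fold, 4 belonged to groups of 2 peaks. A run of T at chrX:73399679-73401554, nearest to the zinc finger gene Zfp36l3, had 66 tags and a fold of 39.9 (30.9 to 50.8). This peak was 1876 bp long, and the annotation names the repeat at its centre. A run of A at chr17:13948552-13948908, nearest to Nxnl2, had 54 tags and a fold of 32.7 (24.5 to 42.6). On chromosome 1, (GTGA)n at chr1:187609464-187609774 had a fold of 25.3 (18.5 to 33.7) and (AGTG)n at chr1:177963946-177964196 had 20.7 (15.3 to 27.5), both names of the same unit. The mixed triplet at chr4:31452103-31452898 had a fold of 23.0 (16.3 to 31.5). All 5 had 38 to 66 tags, so the largest folds came from peaks with fewer tags than the median telomere hexamer peak. At the other end, (CACCAC)n at chr2:94047303-94047567 had the largest p-value of the class, with 30 tags, a fold of 8.06 (5.44 to 11.5) and a -log10 p of 17.78, just inside the annotated range, while the next lower value in the list was 17.77.

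Position separated the classes further. A cluster was taken as 3 or more peaks of 1 class on a chromosome with neighbours at most 100 kb apart. In clusters were 105 of 115 satellite peaks (91.3%, interval 84.7 to 95.2%) and 9 of 98 simple repeat peaks (9.18%, interval 4.91 to 16.5%). Another listed peak of any kind lay within 10 kb of 99 of 115 satellites (86.1%) and 25 of 98 simple repeats (25.5%), against 30.8% of the whole list and 42.1% of the annotated peaks. With a gap of at most 10 kb the share of satellites in clusters was 51.3%. With a fold of at least 5 the order turned, at 0% of the 5 satellites left and 7.23% of the 83 simple repeats left. The share of simple repeats in clusters was 0% with a -log10 p of at least 30, and 3.26% with neighbours within 1 kb counted once.

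The largest satellite cluster lay on chromosome 1 from 180508455 to 181295237 of rn6 and held 48 peaks, 34 SATI_RN and 14 ISAT_RN, over 787 kb. Their median fold was 3.05 (2.05 to 6.01) over a median background of 87.0 tags. Its annotated nearest gene was Rras2, a Ras-related GTPase gene. In the same span the list held 74 peaks, and the 26 without an annotation used here had a median fold of 2.10 (1.54 to 3.43) and a background of 56.4 tags. These 26 all fell below the -log10 p limit, with 17.72 as the highest, so their lower fold is tied to that limit. A similar array on chromosome 13 from 33475882 to 33820425 held 21 peaks, 15 SATI_RN and 6 ISAT_RN, over 345 kb, nearest to Tsn, which encodes the nucleic acid binding protein translin. Their median fold was 3.01 (2.18 to 6.66). Both arrays mixed the 2 names, and all their annotated peaks were satellites. Listed peaks covered 3.90% of the span on chromosome 1 and 4.23% of the span on chromosome 13. The word array stands here for such a cluster of peaks, and whether the sequence between its peaks is satellite was not examined.

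**Figure D3:**
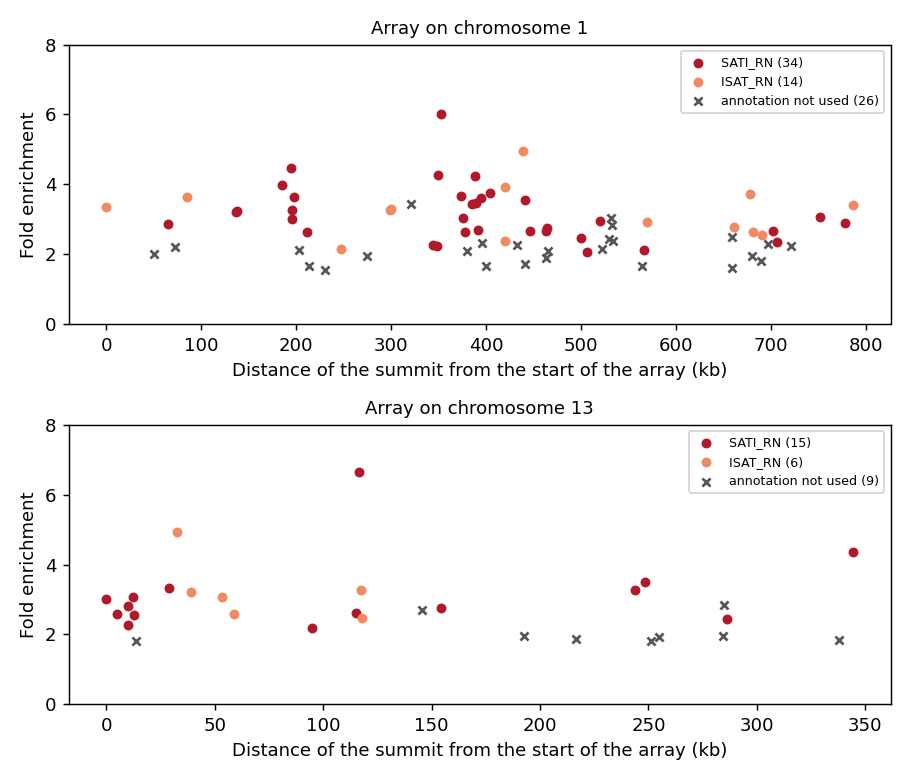
Fold enrichment of every listed peak in the 2 largest satellite arrays against the distance of its summit from the start of the array in kb; circles are SATI_RN and ISAT_RN peaks and crosses are listed peaks whose annotation was not used. The crosses fell below the -log10 p of 17.78, which ties their fold to that limit. The array on chromosome 1 holds 48 satellite peaks and 26 others, and the array on chromosome 13 holds 21 and 9.

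A further 8 satellite clusters had 3 to 6 peaks. On chromosome 7, 6 SATI_RN peaks lay within 14.5 kb with a median fold of 3.44. On chromosome 12, 6 SATI_RN peaks lay within 16.7 kb with a median fold of 3.06 over 109 tags. A group of 4 IMPB_02 peaks lay on chromosome 4 from 146538771 to 146548799, nearest to the autophagy gene Atg7, and peaks covered 46.9% of that span. The fold of the first of these, 7.01, stood above those of the other 3, which were 2.86, 2.98 and 2.99. The medians of all 10 satellite clusters ran from 2.58 to 3.84.

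Among simple repeats 3 clusters tied with 3 peaks each. On chromosome 5 from 146403242 to 146406141, nearest to the HMG-box gene Hmgb4, 3 peaks of the purine triplet with more guanine had folds of 4.43, 12.9 and 13.5, and the peak of lowest fold was 1431 bp long with 66 tags. On chromosome X from 2340037 to 2384420, nearest to the sodium proton exchanger gene Slc9a7, 3 peaks of agaggc had a median fold of 8.22. On Y_KL568151v1_random from 2470128 to 2476604, 3 peaks of the purine triplet with more guanine had a median fold of 12.3. In each cluster the peaks shared a unit.

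**Figure D4:**
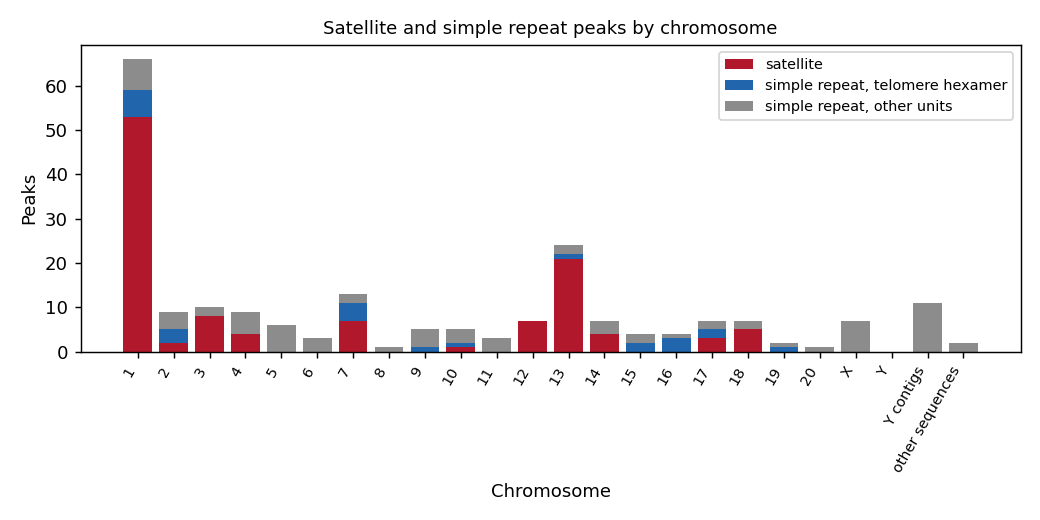
Number of satellite peaks, telomere hexamer peaks and other simple repeat peaks by chromosome, stacked from 0; Y contigs are sequences assigned to but not placed on the Y chromosome. Chromosome 1 held 53 satellite peaks and chromosome 13 held 21, while simple repeats were spread, with 13 on chromosome 1 and 11 on Y contigs.

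By chromosome, 53 of 115 satellite peaks were on chromosome 1 (46.1%, interval 37.3 to 55.2%) and 13 of 98 simple repeats (13.3%, interval 7.92 to 21.4%), against 14.8% of the annotated peaks and 12.1% of the whole list. Of the 53, 48 were peaks of the largest array, which are not independent, and without that array, an alternative added after seeing the data, 5 of 67 satellites were on chromosome 1 (7.46%, interval 3.23 to 16.3%). Satellites were listed on 11 chromosomes, and none of the 115 was on X or on Y sequences. Simple repeats were on every autosome but chromosome 12. Peaks of 1000 bp or more were 10 of 115 satellites and 3 of 98 simple repeats, against 114 of 1930 annotated and 132 of 11570 listed peaks. Median length was 362 bp for satellites and 282 bp for simple repeats. For comparison, it was 355 bp for annotated peaks and 267 bp for the whole list. The longest satellite or simple repeat peak was SATI_RN at chr13:33502416-33505327 with 2912 bp, named after its values were seen.

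With introns left out by the rule and a repeat named in place of a gene feature, all 115 satellite peaks and 85 simple repeat peaks were annotated as intergenic, largely by construction, and the other 13 simple repeats were on unplaced sequences without an annotation of genes. Within 10 kb of a transcription start site were 0 of 115 satellites and 7 of 85 simple repeats (8.24%, interval 4.05 to 16.0%), against 6.86% of all annotated intergenic peaks, a value inside that interval. The nearest genes of these 7 in order of distance were Wwox, an oxidoreductase gene, Skap1, a T cell adaptor gene, Cyp2b1, a cytochrome P450 gene, Znrd1as, Gjb2, a connexin gene, Gpr89b and Clstn3, a calsyntenin gene. The telomere hexamer was the repeat at Wwox, Cyp2b1 and Gpr89b, with folds of 6.93 (5.73 to 8.31), 5.55 (4.81 to 6.37) and 6.03 (5.32 to 6.81). The other 4 carried units with folds from 8.50 at Clstn3 to 14.5 at Skap1.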

How the data were processed

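Per the labels, 2 IP and 2 input libraries came from rat testis. Per the study's methods, the authors kept reads aligned uniquely to rn6, removed duplicates, merged the libraries of each kind, and also called peaks for each replicate. Per the file header, MACS 2.0.9 called broad peaks at a p-value cutoff of 5e-05 on merged files, keeping at most 2 IP and 3 input tags at a position, which left 16203958 of 34071564 IP and 78371120 of 83508652 input tags. Pileup, fold and intervals rest on these tags. The study's methods name an earlier MACS version and a stricter p-value cutoff. They also place duplicate removal before peak calling, while by the header tags were still dropped at these limits, more of them in the IP than in the input. How the 2 accounts fit together was not tested. The deposited coverage signal is the pileup of IP tags at the summit, not normalized. As deposited, fold enrichment is a ratio, pileup over local background. The deposited -log10 p-value is a Poisson value per peak, not adjusted. Repeat names, nearest genes and distance classes came from the authors' HOMER annotation, of which the 1930 peaks of smallest p-value were used here. Local background was computed as pileup over fold. Shares carry Wilson intervals and medians binomial order-statistic intervals (Python 3.11.15, pandas 2.3.3, scipy 1.17.1), and unit grouping, clusters and intervals were tested on simulated data. Recomputed Poisson values were within 0.1 of the deposited -log10 p for 99.8% of the list. Regions named were that of smallest p per repeat name or unit group of 3 or more, the 5 of smallest p and 5 of largest fold per class, rare satellite names, extremes of background and p, and the largest clusters. Members and lists were chosen with earlier results of these data known.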

Additional observations from a re-analysis of the deposited data

How the results depend on the processing

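Of 72 alternative values for 18 results, 47 stayed within the main interval or, for counts, within 1.5 times the main count, and 25 did not. With a fold of at least 5, 5 satellite peaks were left, with a median fold of 7.01, a median background of 29.0 tags and 0% in clusters. With a -log10 p of at least 30, 38 simple repeats were left, with a median fold of 7.50, a median background of 14.4 tags, 0% in clusters and 60.5% with the telomere hexamer, and the median background of satellites was 90.7 tags. Counting each pair of tags once gave median backgrounds of 41.1 tags for satellites and 1.55 tags for simple repeats, by construction. Counting neighbours within 1 kb once gave 84.4% of satellites and 3.26% of simple repeats in clusters. A gap of at most 10 kb gave 51.3% of satellites in clusters. The most frequent telomere name alone gave 5.10% of simple repeats. Leaving out the array on chromosome 1, an alternative chosen after seeing the data, left 67 satellites. Other than for pairs counted once and sets made smaller by construction, the cause was not tested.

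No paired analysis was possible because the list used holds values of the merged libraries and none per library, and for the same reason leaving out a replicate was not run. The annotation used covers the peaks of smallest p-value, so both classes are counted down to that limit alone. Reads that aligned to more than a single place were left out by the authors, and what they would add at either class was not tested. Peaks come from 1 merged profile, so the spread between animals is unknown.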

Other observations

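Outside the rule, 25 annotated peaks on the same repeat classes lay in introns, 4 on satellites and 21 on simple repeats. The telomere hexamer was the unit of 4 of these, in Cyp2b1, Ptprr, Cacna2d3 and Ccdc91, with folds of 4.81 (exact 95% Poisson interval 4.15 to 5.54), 11.9 (9.53 to 14.8), 5.96 (5.01 to 7.04) and 5.73 (4.78 to 6.81). The intronic satellites were 2 SATI_RN peaks, in Adgrl3 and Ephb1 with folds of 8.02 (6.23 to 10.2) and 4.11 (3.30 to 5.05), and 2 ZP3AR peaks, in Pglyrp1 and Adap1 with folds of 11.8 (8.14 to 16.4) and 11.4 (7.29 to 16.9). Backgrounds at the SATI_RN pair were 8.48 and 21.9 tags, below the median of 87.0 tags for SATI_RN peaks outside introns. These genes were named after their values were seen.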
